A study of Mus musculus with 20 samples.

Results

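Cytosolic heat shock chaperones were examined as 10 genes chosen by mouse symbol: the heat shock transcription factor gene Hsf1, the HSP70 genes Hspa1a, Hspa1b and Hspa8, the HSP110 gene Hsph1, the J-domain gene Dnajb1, the HSP90 genes Hsp90aa1 and Hsp90ab1, and the small heat shock protein genes Hspb1 and Hspb8. All 10 were among the 35226 genes of the count table, and all 10 were among the 16665 genes with enough counts to be tested. The tumors came from LLC1, a mouse Lewis lung carcinoma cell line, injected in PBS and Matrigel under the skin of the right flank of adult male C57Bl6/J mice, which were assigned at random to a treatment once the tumor reached 100 mm3. RNA was sequenced from 20 tumors, 5 in each of 4 groups: vehicle, KW6002 (istradefylline, a drug that blocks an adenosine receptor), cisplatin, and cisplatin with KW6002, called cotreatment here. The study's carrier for KW6002 was a mixture of DMSO, cremophor and saline, and cisplatin was dissolved in saline. The tumors grew from 1 cell line in hosts with their own stroma and blood cells, so each library mixes tumor and host RNA, and in such bulk samples fewer cells of a type and less RNA per cell cannot be told apart. Total counts ranged from 28371364 to 40965731 per tumor.

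Heat shock chaperones keep proteins folded. HSP70 binds exposed stretches of unfolded proteins in a cycle driven by ATP, in which J-domain proteins such as Dnajb1 deliver the client and HSP110 proteins such as Hsph1 release the nucleotide, and HSP90 takes over clients such as kinases and steroid receptors for their last folding steps. Small heat shock proteins hold unfolding proteins without ATP. HSF1 switches on the inducible members of the family by binding heat shock elements, which are inverted repeats of the letters GAA, and tumors often carry high levels of these chaperones.

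Promoters are shown for Hspa1a, Hspa1b and Hsph1, which carried the largest called differences, and for Hspb1, which was not called. They were chosen because each holds a match to 2 units of the inverted GAA repeat upstream of its start. Binding of HSF1 at these matches was not tested. Sequences are from RefSeq with the GRCm38.p6 build, written 5′ to 3′ on the strand of the gene; capitals mark each match to GAANNTTC or TTCNNGAA. Positions count from the start site listed for each promoter, whose first base is 1. For Hsph1 this site is 149636336, and the gene span given below begins farther upstream, at 149636376. Its TTCTCGAA match thus lies upstream of the listed site but inside that span. Of the 10 members, 6 had an entry in the promoter table. Hspa1a and Hspa1b have the same 100 bases at positions -150 to -51, so that stretch is printed once (chr17:34972207-34972306 for Hspa1a and chr17:34959289-34959388 for Hspa1b, both minus strand).
Hspa1a and Hspa1b: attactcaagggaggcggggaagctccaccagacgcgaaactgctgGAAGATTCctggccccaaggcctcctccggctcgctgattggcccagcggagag
Hsph1 (chr5:149636357-149636451, minus strand): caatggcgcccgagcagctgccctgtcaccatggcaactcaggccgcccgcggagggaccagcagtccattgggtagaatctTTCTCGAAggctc
Hspb1 (chr5:135887769-135887868, plus strand): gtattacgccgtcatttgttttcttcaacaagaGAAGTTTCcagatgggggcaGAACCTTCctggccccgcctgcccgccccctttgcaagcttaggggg

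In windows of 300 bases around the start, the promoters of Hspa1a and Hspa1b were identical at 296 of 300 bases, and each held 1 match, GAAGATTC, at positions -104 to -97. Hspb1 held 2 matches, at positions -117 to -110 and -97 to -90, and Hspb8 held GAAGTTTC at positions 3 to 10, after the start. Hsph1, counted from the more upstream of its 2 starts, held TTCTCGAA at positions -33 to -26 and a run of 3 units, TTCTGGAAAGTTC, at positions 37 to 49, which contains an overlapping match of each of the 2-unit forms. No match was found for Dnajb1 in the windows of its 2 starts. Of 32851 promoters in the table, 7.86% held GAANNTTC, 8.52% held TTCNNGAA, 15.1% held either and 0.603% held TTCNNGAANNTTC on either strand. GAANNTTC and TTCNNGAA each read the same on both strands. Hsf1, Hspa8, Hsp90aa1 and Hsp90ab1 had no entry.

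Levels are given as CPM, which are counts scaled to a common library size, and per kilobase of exon where genes are compared with each other. In vehicle tumors Hsp90ab1, the constitutive HSP90 gene, stood at 1480 ± 138 CPM per kilobase (SD, n = 5), above Hspa8, the constitutive HSP70 gene, at 129 ± 17.7 and Hsp90aa1, the inducible HSP90 gene, at 47.3 ± 2.39. Hspb8 (30.8 ± 2.14), Hsph1 (24.4 ± 3.53) and Dnajb1 (21.5 ± 2.47) followed, and the ranges of mean ± SD of Hsph1 and Dnajb1 overlapped. Hsf1 had 10.7 ± 1.1 CPM per kilobase. The lowest were Hspa1b (1.45 ± 0.627), Hspa1a (0.841 ± 0.305) and Hspb1 (0.707 ± 0.668), whose ranges of mean ± SD overlapped, although Hspa1b had more CPM than Hspa1a in each of the 20 tumors. The inducible HSP70 genes were thus far below the constitutive Hspa8. Only reads that aligned to 1 place were counted, and this lowers some members more than others. Of the 50-base windows of each gene's transcripts, 66.3% in Hspa1a and 62.3% in Hspa1b also occur in another gene, mostly in each other, against 50.1% in Hspb1 (mostly with Hsp25-ps1), 47.5% in Hsp90aa1 (mostly with Gm12346), 39.4% in Hspa8 (mostly with Gm15459), 3.44% in Hsp90ab1, 0.412% in Dnajb1 and 0% in Hsf1, Hsph1 and Hspb8. The shares also count windows of genes that overlap a member at the same place, as Gm20481 does with Hspa1a and small nucleolar RNA genes with Hspa8. Such overlap leaves a read with 1 place to align, so the shares of Hspa1a and Hspa8 can overstate the loss. Of the Hspa1a windows, 58.8% were shared with Hspa1b itself. Levels of the sharing genes are still too low by an unknown amount, and the split between Hspa1a and Hspa1b is uncertain.

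**Figure D1:**
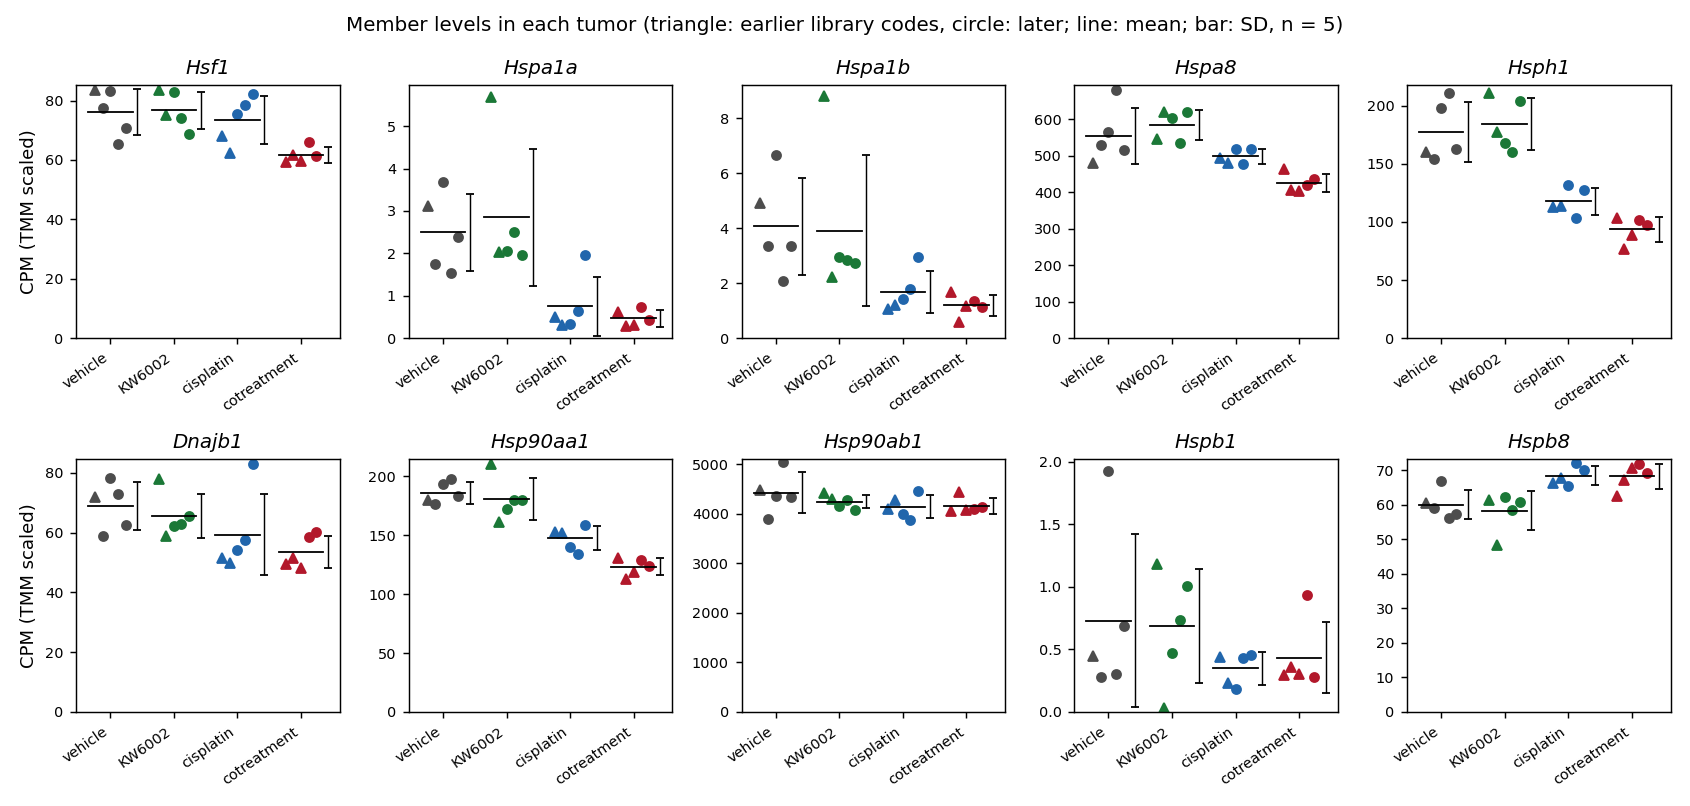
Level of each member in CPM, 1 panel per gene with the axis from 0; points are tumors, triangles those with earlier library codes and circles those with later ones, lines are group means and bars the SD (n = 5). Hspa1a, Hspa1b, Hsph1 and Hsp90aa1 sit lower in most or all cisplatin and cotreatment tumors than in vehicle and KW6002 tumors, while Hsp90ab1 overlaps in all 4 groups.

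Cisplatin was compared with vehicle to see which chaperones changed with chemotherapy alone, cotreatment with cisplatin to see what the addition of KW6002 to cisplatin changed, and cotreatment with vehicle and with KW6002 for the combined treatment and for cisplatin in the presence of KW6002. A gene was called where its Benjamini-Hochberg adjusted p over all tested genes was under 0.05 in edgeR's quasi-likelihood test and its log2 fold change was at least 0.32 in size. After cisplatin, 4 of 10 members were lower (Hspa1a, Hspa1b, Hsph1 and Hsp90aa1), none was higher and 6 were not called; of all tested genes 4.57% were called lower and 6.01% higher. After cotreatment, 6 of 10 members were lower, Hspa8 and Dnajb1 in addition to those 4, and none was higher, against 10.4% of all tested genes called lower and 13.1% higher. The median log2 fold change over the 10 members was -0.28 after cisplatin and -0.49 after cotreatment, and over all tested genes it was 0 and -0.016. Both comparisons share the vehicle tumors. The members were chosen with earlier results of these data known, so their counts beside the shares over all tested genes are a description. KW6002 alone moved no member past the threshold. The labels do not say that the tumors of a group came from separate mice, so p values measure the spread between these tumors.

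Hsf1 (ENSMUSG00000022556, chr15:76477422-76501913, GRCm38 as all gene positions here) encodes the master transcription factor of the heat shock response. Its CPM was 83.4, 77.6, 83.3, 65.5 and 70.9 in vehicle tumors 1 to 5, and 83.4, 75.1, 82.7, 74 and 68.7 in the KW6002 tumors. It was 68, 62.3, 75.5, 78.5 and 82.3 in the cisplatin tumors and 59.4, 61.6, 59.7, 65.9 and 61.4 in the cotreatment tumors. The cotreatment tumors were the lowest group and close together, and only cotreatment 4 reached above the lowest vehicle tumor. The log2 fold change of Hsf1 after cotreatment was -0.31 ± 0.078 (SE), edgeR adjusted p = 0.00432, which passed the p threshold but fell just short of the fold limit. By adjusted p alone, 8 of 10 members passed in this comparison, against 35.4% of all tested genes in either direction. Without vehicle 4 (-0.35, adjusted p = 0.00215) or cotreatment 4 (-0.33, adjusted p = 0.00433) Hsf1 passed the fold limit too. After cisplatin alone Hsf1 differed by -0.05 ± 0.078 on the log2 scale (adjusted p = 0.682), and without cisplatin 2 the value was 0.00.

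Hspa1a (ENSMUSG00000091971, chr17:34969190-34972156) and Hspa1b (ENSMUSG00000090877, chr17:34956436-34959238), neighbouring and nearly identical genes, encode the stress-inducible HSP70. Hspa1a stood at 3.11, 1.76, 3.69, 1.54 and 2.38 CPM in the vehicle tumors and at 5.69, 2.03, 2.06, 2.5 and 1.95 CPM in the KW6002 tumors. It stood at 0.507, 0.305, 0.333, 0.644 and 1.95 CPM in the cisplatin tumors and at 0.612, 0.276, 0.307, 0.743 and 0.437 CPM in the cotreatment tumors. All cotreatment tumors were below all vehicle and KW6002 tumors, whereas cisplatin 5 reached into the vehicle range and the other 4 cisplatin tumors did not. The fold change was 3.31-fold lower after cisplatin (log2 -1.73 ± 0.46, adjusted p = 0.0139) and 5.16-fold lower after cotreatment (log2 -2.37 ± 0.47, adjusted p = 7e-04). These are small counts, from 9 to 183 reads per tumor. Hspa1a overlaps Gm20481 on the opposite strand by 564 bases, and that gene had at most 2 reads in any tumor. Without cisplatin 5 the log2 fold change after cisplatin was -2.48 (adjusted p = 0.000451).

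Hspa1b measured 4.9, 3.34, 6.66, 2.09 and 3.36 CPM in the vehicle tumors and 8.8, 2.22, 2.94, 2.85 and 2.75 CPM in the KW6002 tumors. It measured 1.05, 1.19, 1.42, 1.78 and 2.96 CPM in the cisplatin tumors and 1.69, 0.606, 1.16, 1.35 and 1.15 CPM in the cotreatment tumors. Cisplatin 5 was again the cisplatin tumor inside the vehicle range, and cotreatment and vehicle tumors did not overlap. Hspa1b was 2.41-fold lower after cisplatin (log2 -1.27 ± 0.4, adjusted p = 0.0342) and 3.39-fold lower after cotreatment (log2 -1.76 ± 0.41, adjusted p = 0.0022). The call after cisplatin was lost when vehicle 1, vehicle 3, cisplatin 1, cisplatin 2, cisplatin 3 or cisplatin 4 was left out, with log2 fold changes of -1.20, -1.01, -1.15, -1.17, -1.21 and -1.28 and adjusted p of 0.0652, 0.0985, 0.0662, 0.0705, 0.0768 and 0.0666. With the reads of Hspa1a and Hspa1b summed, the log2 fold change was -1.43 after cisplatin (adjusted p = 0.0212) and -1.97 after cotreatment (adjusted p = 0.00116).

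The constitutive HSP70, Hspa8 (ENSMUSG00000015656, chr9:40800984-40810087), also strips clathrin from vesicles and feeds chaperone-mediated autophagy. Its CPM was 481, 529, 564, 680 and 517 in the vehicle tumors and 546, 621, 604, 536 and 619 in the KW6002 tumors. It was 495, 481, 518, 478 and 518 in the cisplatin tumors and 464, 406, 404, 419 and 437 in the cotreatment tumors. Every cotreatment tumor was below every tumor of the other 3 groups, with cisplatin and vehicle tumors overlapping. Hspa8 was 1.3-fold lower after cotreatment (log2 -0.38 ± 0.074, adjusted p = 0.000475) and differed by -0.15 ± 0.074 after cisplatin (adjusted p = 0.161). Hspa8 overlaps 3 small nucleolar RNA genes on its own strand, Snord14c and Snord14d by 86 bases each and Snord14e by 90 bases, and reads that touch both are not counted for either gene in union mode. Without vehicle 4, the highest vehicle tumor, the log2 fold change after cotreatment was -0.29 (adjusted p = 0.00106), under the fold limit. For every 100 reads of Hspa8 there were 0.534 to 1.84 reads of Hspa1a and Hspa1b together in vehicle tumors, 0.686 to 2.65 with KW6002, 0.311 to 0.948 with cisplatin and 0.217 to 0.5 with cotreatment.

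Hsph1 (ENSMUSG00000029657, chr5:149614287-149636376), the HSP110 nucleotide exchange factor of HSP70, had the largest fold change after cisplatin and after cotreatment among the called members above 10 CPM in vehicle tumors. It measured 160, 154, 198, 211 and 163 CPM in the vehicle tumors and 211, 177, 168, 160 and 204 CPM in the KW6002 tumors. It measured 113, 114, 132, 103 and 127 CPM in the cisplatin tumors and 103, 76.7, 88.8, 102 and 97.1 CPM in the cotreatment tumors. All 10 tumors that received cisplatin lay below all 10 that did not. Hsph1 was 1.5-fold lower after cisplatin (log2 -0.59 ± 0.1, adjusted p = 0.000652) and 1.89-fold lower after cotreatment (log2 -0.92 ± 0.1, adjusted p = 1.66e-06). No 50-base window of Hsph1 is shared with another gene.

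Dnajb1 (ENSMUSG00000005483, chr8:83608193-83612653), an HSP40 that hands clients to HSP70 and is itself stress-inducible, measured 72, 59, 78.3, 72.9 and 62.6 CPM in the vehicle tumors and 77.9, 59, 62.2, 62.8 and 65.5 CPM in the KW6002 tumors. It measured 51.6, 49.9, 54.2, 57.7 and 82.9 CPM in the cisplatin tumors and 49.5, 51.4, 48.3, 58.5 and 60.1 CPM in the cotreatment tumors. Cisplatin 5 had the highest Dnajb1 of all 20 tumors, and the other 4 cisplatin tumors were below every vehicle tumor, while cotreatment 5 reached above the lowest vehicle tumor. The log2 fold change was -0.22 ± 0.12 after cisplatin (adjusted p = 0.221) and -0.36 ± 0.12 after cotreatment (adjusted p = 0.0221). Without cisplatin 5 the value after cisplatin was -0.36 (adjusted p = 0.0137), which would be called. The call after cotreatment was lost without vehicle 3 (-0.30, adjusted p = 0.0751), without vehicle 4 (-0.34, adjusted p = 0.058), without cotreatment 1 (-0.34, adjusted p = 0.0513), without cotreatment 2 (-0.34, adjusted p = 0.0602) and without cotreatment 3 (-0.33, adjusted p = 0.0574).

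The HSP90 genes differed from each other. Hsp90aa1 (ENSMUSG00000021270, chr12:110690605-110702728), the inducible form, stood at 180, 176, 193, 198 and 183 CPM in the vehicle tumors and at 210, 161, 172, 180 and 180 CPM in the KW6002 tumors. It stood at 153, 152, 140, 134 and 159 CPM in the cisplatin tumors and at 131, 113, 119, 129 and 124 CPM in the cotreatment tumors. Each group that received cisplatin lay below all vehicle tumors, and cotreatment lay below all cisplatin tumors. Hsp90aa1 was 1.26-fold lower after cisplatin (log2 -0.33 ± 0.066, adjusted p = 0.0017) and 1.51-fold lower after cotreatment (log2 -0.60 ± 0.066, adjusted p = 1.32e-06). The value after cisplatin is at the edge of the fold limit, and it was below it without vehicle 3 (-0.31), vehicle 4 (-0.30), cisplatin 3 (-0.30) or cisplatin 4 (-0.29), where the adjusted p values were 0.00661, 0.00752, 0.00788 and 0.00642.

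Hsp90ab1 (ENSMUSG00000023944, chr17:45567775-45573271), the constitutive form and the most abundant member, ranged from 3900 to 5050 CPM in vehicle tumors, 4080 to 4410 with KW6002, 3880 to 4460 with cisplatin and 4060 to 4440 with cotreatment. The 4 ranges overlapped. Its log2 fold change was -0.09 with a 95% interval from -0.22 to 0.03 after cisplatin (adjusted p = 0.3) and -0.09 with an interval from -0.21 to 0.04 after cotreatment (adjusted p = 0.265). For every 100 reads of Hsp90ab1 there were 3.93 to 4.51 reads of Hsp90aa1 in vehicle tumors, 3.74 to 4.75 with KW6002, 3.46 to 3.72 with cisplatin and 2.54 to 3.21 with cotreatment. This ratio does not depend on library scaling, and its cisplatin and cotreatment ranges overlapped neither each other nor the vehicle range.

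The small heat shock proteins gave no call. Hspb1 (HSP25 in mice; ENSMUSG00000004951, chr5:135887919-135889563), which binds actin and unfolding proteins, was nearly silent, at 1 to 59 reads per tumor. It measured 0.449, 0.281, 1.93, 0.303 and 0.685 CPM in the vehicle tumors, 1.18, 0.0322, 0.475, 0.736 and 1.01 with KW6002, 0.44, 0.229, 0.182, 0.429 and 0.459 with cisplatin, and 0.294, 0.358, 0.307, 0.936 and 0.281 with cotreatment. The groups overlapped, and the log2 fold change after cisplatin was -1.07 with an interval from -2.34 to 0.21 (adjusted p = 0.244), so a fall of several fold lies within the interval. After cotreatment it was -0.73 (adjusted p = 0.364), and without vehicle 3, the highest tumor, it was 0.04.

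Hspb8 (ENSMUSG00000041548, chr5:116408491-116422864), which works with the co-chaperone BAG3 in selective autophagy, was the member with higher values after treatment. Its CPM was 60.4, 59.1, 66.9, 56.1 and 57.4 in the vehicle tumors and 61.3, 48.5, 62.4, 58.5 and 60.9 in the KW6002 tumors. It was 66.3, 67.7, 65.6, 72.2 and 70.1 in the cisplatin tumors and 62.5, 67.3, 70.6, 71.8 and 69.3 in the cotreatment tumors. Vehicle 3 reached into both treated ranges and the other vehicle tumors did not. The log2 fold change was 0.19 ± 0.064 after cisplatin and after cotreatment. The adjusted p was 0.0476 after cisplatin and 0.0272 after cotreatment, and both values were below the fold limit. With cisplatin, 5 of 10 members passed the p threshold alone, against 16.5% of all tested genes.

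**Figure D2:**
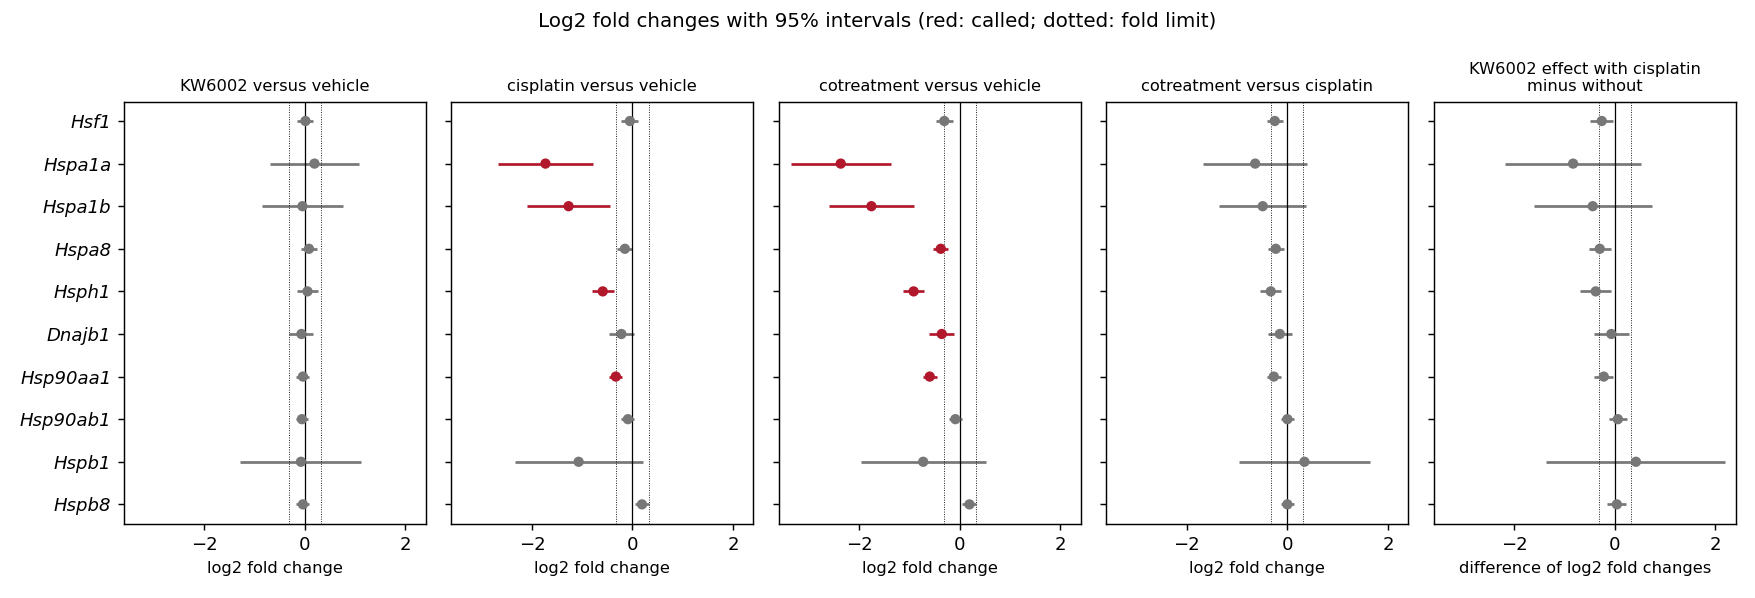
Log2 fold change of each member in 4 comparisons, and in the last panel the difference between the effect of KW6002 with and without cisplatin; points are edgeR estimates, lines 95% intervals, red marks called members and dotted lines the fold limit of 0.32. Called members lie to the left of 0, 4 in the comparison of cisplatin with vehicle and 6 in that of cotreatment with vehicle, and the intervals of Hspa1a, Hspa1b and Hspb1 are the widest.

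Members whose groups did not overlap were counted on the CPM values. With cisplatin, 2 of 10 members (Hsph1 and Hsp90aa1) were lower in every treated tumor than in every vehicle tumor, against 5.12% of all tested genes. With cotreatment, 5 of 10 members (Hspa1a, Hspa1b, Hspa8, Hsph1 and Hsp90aa1) were, against 12.4%. No member was higher in every treated tumor than in every vehicle tumor with cisplatin or cotreatment, against 5.23% and 12.2% of all tested genes.

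KW6002 alone gave 0 calls among the 10 members and 0% among all tested genes in edgeR's test, with 0 members at an unadjusted p under 0.05 (2.03% of all tested genes), 0 called with DESeq2 and 0 with limma. Log2 fold changes of the members lay between -0.08 and 0.19. The largest, for Hspa1a (0.19, 95% interval -0.69 to 1.08), rests on KW6002 1, and without that tumor it was -0.22. The 95% intervals were also wide for Hspa1b (-0.85 to 0.75) and Hspb1 (-1.29 to 1.12), and those of the other 7 members lay between -0.32 and 0.26.

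The comparison of cotreatment with cisplatin asks what KW6002 adds in tumors that received cisplatin. No member was called in edgeR's test, against 1.71% of all tested genes called lower and 2.29% higher. These shares depended on single tumors. With all tumors 285 genes were called lower and 382 higher, without cotreatment 2 it was 111 and 179, and without cotreatment 4 it was 461 and 556. DESeq2 called 1 member and limma called 1, Hsph1 in both, where 2.2% and 2.59% of all tested genes were called lower. At an unadjusted p under 0.05 there were 4 members, each lower, against 12% of all tested genes lower at that threshold. Hsp90aa1 was 1.2-fold lower (log2 -0.27 ± 0.066, adjusted p = 0.0205), which passed the p threshold and not the fold limit; 1 of 10 members did so by p alone, against 6.52% of all tested genes. Hsph1 was 1.26-fold lower (log2 -0.33 ± 0.1, adjusted p = 0.0553), past the fold limit and just short on p. It was called without vehicle 4 (-0.33, adjusted p = 0.0441), cisplatin 4 (-0.38, adjusted p = 0.0435) or cotreatment 4 (-0.36, adjusted p = 0.0429). Hsf1 (-0.25 ± 0.078, adjusted p = 0.0551) and Hspa8 (-0.23 ± 0.074, adjusted p = 0.0711) were the next. Hspa8 and Hsp90aa1, 2 of 10 members, were lower in every cotreatment tumor than in every cisplatin tumor, against 2.5% of all tested genes. Hspa1a (-0.64, interval -1.67 to 0.39) and Hspa1b (-0.49, interval -1.35 to 0.37) were too variable to place, and without cisplatin 5 Hspa1a stood at 0.11. Dnajb1 differed by -0.15 (interval -0.39 to 0.1), and by 0.01 without cisplatin 5. Hsp90ab1 and Hspb8 had log2 differences of 0.00 with intervals from -0.12 to 0.13 and from -0.13 to 0.13.

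Whether KW6002 acted differently with cisplatin than without was tested as an interaction. It gave 0 calls among the members and 0.066% among all tested genes. The count over all genes depended on single tumors. It was 5 lower and 6 higher with all tumors, 88 and 137 without cotreatment 4, and 0 and 0 without cotreatment 2. No member was called in any of the 20 fits with 1 tumor left out. At an unadjusted p under 0.05 there were 4 members, each with a negative difference, against 6.25% of all tested genes with a negative difference at that threshold. DESeq2 and limma called 0 members, where they called 1.57% and 1.69% of all tested genes. Hspa8 had the smallest p, with a difference of -0.30 ± 0.11 on the log2 scale (unadjusted p = 0.00878, adjusted p = 0.23). The corresponding values were -0.38 for Hsph1, -0.26 for Hsf1 and -0.22 for Hsp90aa1, with adjusted p of 0.273, 0.329 and 0.332. A different action of KW6002 in the 2 settings was therefore not shown for any member.

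Cotreatment against KW6002 alone, the comparison of cisplatin with no cisplatin in the presence of KW6002, called 5 of 10 members lower, against 10.7% of all tested genes. These were Hspa1a (log2 -2.56 ± 0.47, adjusted p = 0.000361), Hspa1b (-1.71 ± 0.41, adjusted p = 0.00285), Hspa8 (-0.46 ± 0.074, adjusted p = 8.69e-05), Hsph1 (-0.97 ± 0.1, adjusted p = 1.02e-06) and Hsp90aa1 (-0.55 ± 0.066, adjusted p = 3.06e-06). Hsf1 (-0.32 ± 0.078, adjusted p = 0.00326) fell just short of the fold limit and passed it without KW6002 2, KW6002 4, KW6002 5 or cotreatment 4, at -0.33, -0.33, -0.35 and -0.34. Dnajb1 was at -0.29 ± 0.12 (adjusted p = 0.0652), and at -0.33 (adjusted p = 0.05) and called without cotreatment 5. Hspb8 went the other way, at 0.23 ± 0.064 (adjusted p = 0.00877), past the p threshold and under the fold limit, with every cotreatment tumor (62.5 to 71.8 CPM) above every KW6002 tumor (48.5 to 62.4 CPM). It was the 1 member higher with no overlap, against 12.2% of all tested genes, and 6 members (Hsf1 and the 5 called ones) were lower with no overlap, against 12.7%. In this comparison 5 of 6 endothelial, 5 of 5 red blood cell, 5 of 6 T and NK cell, and 4 of the 5 tested neutrophil and 4 of the 5 tested smooth muscle and pericyte markers were also lower, and their part in the chaperone values was not tested. The summed T and NK cell markers were 3.13 to 22 CPM with KW6002 and 1.71 to 3.55 with cotreatment. The 22 CPM was KW6002 1, and the other KW6002 tumors were at 3.13 to 9.32. With vehicle the sum was 1.68 to 6.5 CPM, and 0 of these 6 markers were called lower against vehicle after cisplatin or cotreatment.

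The numbers in the library codes fall into a lower and a higher block, called the earlier and the later run here. This split rests on the numbers alone. The labels do not say whether the blocks were prepared or sequenced apart. The groups are not spread evenly over the blocks. The earlier run holds 1 vehicle, 2 KW6002, 2 cisplatin and 3 cotreatment tumors. In the later run alone, 2 members were called after cisplatin, where 6.93% of the genes tested in that run were called lower: Hsph1 (log2 -0.57, adjusted p = 0.00845) and Hsp90aa1 (-0.36, adjusted p = 0.00338), and Hspa1a (-1.23, adjusted p = 0.0961) and Hspa1b (-0.89, adjusted p = 0.0832) were not. After cotreatment Hspa1a was at -1.95 (adjusted p = 0.0529), and 4 members were called there, against 5.34% of the genes tested in that run: Hspa1b (-1.60, adjusted p = 0.0247), Hspa8 (-0.40, adjusted p = 0.0185), Hsph1 (-0.85, adjusted p = 0.0026) and Hsp90aa1 (-0.55, adjusted p = 0.000652). Dnajb1 in the later run was at -0.05 after cisplatin and -0.18 after cotreatment (adjusted p = 0.806 and 0.462), and Hsf1 was at 0.10 and -0.20 (adjusted p = 0.434 and 0.199). The earlier run holds 1 vehicle tumor and gives no value of its own against vehicle. For cotreatment against KW6002, 3 members were called in the later run and 6 in the earlier one, where 4.37% and 9.18% of all genes tested were called lower. Hspa1b was called in neither (-1.17 and -2.25, adjusted p = 0.106 and 0.0523), and Hspa1a in the earlier run alone (-3.24, adjusted p = 0.00312, against -1.85, adjusted p = 0.0858). For cotreatment against cisplatin, Hsph1 was at -0.28 in the later run and -0.34 in the earlier one, Hsp90aa1 at -0.19 and -0.33, Hspa8 at -0.24 and -0.19, and Hsf1 at -0.31 and -0.11, with no member called in either run, where 0.00581% and 0.627% of all genes tested were called lower.

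Markers of several host cell types differed with cisplatin. Of 6 endothelial markers, 6 were called lower after cisplatin and 5 after cotreatment, and their summed level was 140 to 204 CPM in vehicle tumors, 122 to 194 with KW6002, 68.9 to 95.8 with cisplatin and 74.1 to 111 with cotreatment. Red blood cell markers, 5 of 5 lower in both, fell from a summed 25.9 to 117 CPM with vehicle to at most 0.0613 with cisplatin and 0.11 with cotreatment. Of the 5 smooth muscle and pericyte markers tested, 4 were lower in both, and of the 5 neutrophil markers tested, 2 were lower after cisplatin and 4 after cotreatment. Of 7 fibroblast markers, 3 were lower after cisplatin and 2 after cotreatment, with summed levels of 9810 to 12800 CPM with vehicle, 8550 to 14200 with cisplatin and 10700 to 12200 with cotreatment. Skeletal muscle markers varied widely from tumor to tumor, with a summed median of 7.51 CPM (7.11 to 76.6) with vehicle, 7.72 (6.88 to 326) with KW6002, 212 (5.59 to 384) with cisplatin and 23.4 (5.86 to 1720) with cotreatment; of 12, none was called after cisplatin and 1 was higher after cotreatment. The part these cells have in the lower chaperone values was not tested. The sum of immediate early genes, which rise in stressed or handled tissue, was 161 to 254 CPM with vehicle, 162 to 334 with cisplatin and 189 to 219 with cotreatment, with none of 9 called after cisplatin and 1 higher and 2 lower after cotreatment. Some markers were higher with cisplatin. Macrophage markers summed to 1900 to 3000 CPM with vehicle, 2050 to 2870 with KW6002, 2750 to 3670 with cisplatin and 2250 to 3360 with cotreatment; of 6, 1 was higher after cisplatin, and 1 was higher and 1 lower after cotreatment. Of the 4 epithelial and lung markers tested, 1 was called higher after cisplatin, 1 after cotreatment and 0 with KW6002 alone. Summed, the epithelial and lung markers reached 392 to 426 CPM with vehicle and 324 to 435 with KW6002. They reached 481 to 600 CPM with cisplatin and 468 to 549 with cotreatment. These sums were mostly Krt8 (means of 129, 123, 185 and 191 CPM in the 4 groups in that order) and Krt18 (273, 259, 340 and 316 CPM), while Epcam, Sftpc and Scgb1a1 were at or near 0 in all groups. Their part in the chaperone values was not tested either. The mitochondrial share of counts was 1.12 to 1.57% with vehicle and 1.27 to 1.57% with KW6002. It was 1.31 to 1.86% with cisplatin and 1.49 to 1.91% with cotreatment, and its part in the chaperone values was not tested.

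Other chaperones show which neighbours of the members changed with them. Among the co-chaperones of HSP70 and HSP90, 17 genes, 6 were lower and 1 was higher after cotreatment, with a median log2 fold change of -0.18, where 10.4% of all tested genes were called lower and 13.1% higher. After cisplatin 1 of 17 was lower and 1 higher, close to the shares over all tested genes (4.57% and 6.01%). The lower ones included the immunophilins Ppid (log2 -0.66 ± 0.089, adjusted p = 1.12e-05) and Fkbp4 (-0.54 ± 0.06, adjusted p = 1.41e-06), which join HSP90 complexes with steroid receptors. The higher one was Fkbp5, another immunophilin of the same complexes and a known glucocorticoid target, which was raised 3.5-fold, from 191 ± 30.2 CPM with vehicle to 668 ± 152 with cotreatment (log2 1.81 ± 0.15, adjusted p = 1.14e-07). Fkbp5 was also higher after cisplatin alone (log2 0.76 ± 0.15, adjusted p = 0.00162) and higher with cotreatment than with cisplatin (1.05 ± 0.15, adjusted p = 0.000778), and Fkbp4 was lower there (-0.35 ± 0.06, adjusted p = 0.00273). The RNAs of these related proteins thus differed in direction in the same tumors.

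The remaining cytosolic lists were mixed, and their counts after cotreatment stand against the same 10.4% of all tested genes called lower and 13.1% called higher. Of the 6 other HSP70 and HSP110 genes tested, 2 were lower after cotreatment, Hspa4 (-0.47 ± 0.051, adjusted p = 1.32e-06), an HSP110 relative of Hsph1, and Hspa12b (-0.39 ± 0.076, adjusted p = 0.000485), an endothelial HSP70 relative. The third HSP110 gene, Hspa4l, was higher (0.40 ± 0.11, adjusted p = 0.00879). Of 9 J-domain genes, none was lower and 2 were higher, a share of this small list not far from those over all tested genes. These were Dnajb4 (0.75 ± 0.089, adjusted p = 3.03e-06) and Dnajb5 (0.60 ± 0.11, adjusted p = 0.000289), both close relatives of Dnajb1. Dnajb5 was higher after cisplatin alone as well (0.38 ± 0.11, adjusted p = 0.0239). Of the 8 subunits of TRiC, the chaperonin that folds actin and tubulin, all had negative values, with a median of -0.19, and 2 were called, Cct4 (-0.35 ± 0.054, adjusted p = 5.37e-05) and Cct5 (-0.32 ± 0.054, adjusted p = 0.000107). Of the 4 other small heat shock protein genes tested, Hspb6, abundant in muscle, was higher (0.94 ± 0.21, adjusted p = 0.00145). The skeletal muscle markers reached 1720 CPM in cotreatment 4, and their part in the value of Hspb6 was not tested. Of the 5 other heat shock factors and regulators tested, 1 was higher, Hsf2bp, at a low level, and Hsf2 was at -0.03 ± 0.083 (adjusted p = 0.785).

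Some chaperones of other compartments were lower after cotreatment, where 10.4% of all tested genes were called lower and 13.1% higher. In mitochondria 3 of 7 were lower and none higher, led by the partner genes Hspd1 (-0.53 ± 0.059, adjusted p = 1.52e-06) and Hspe1 (-0.51 ± 0.071, adjusted p = 1.69e-05), which form the HSP60 and HSP10 folding chamber. In the endoplasmic reticulum 3 of 9 were lower and none higher, among them the protein disulfide isomerase Pdia4 (-0.45 ± 0.075, adjusted p = 0.000111) and the HSP110 relative Hyou1 (-0.37 ± 0.054, adjusted p = 2.76e-05). The medians were -0.22 and -0.23. After cisplatin alone none of the genes in these 2 lists reached the fold limit, but Hspd1 (-0.31, adjusted p = 0.00133), Pdia4 (-0.28, adjusted p = 0.0143), Hyou1 (-0.19, adjusted p = 0.0176) and Hspe1 (-0.21, adjusted p = 0.0478) passed the p threshold.

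**Figure D3:**
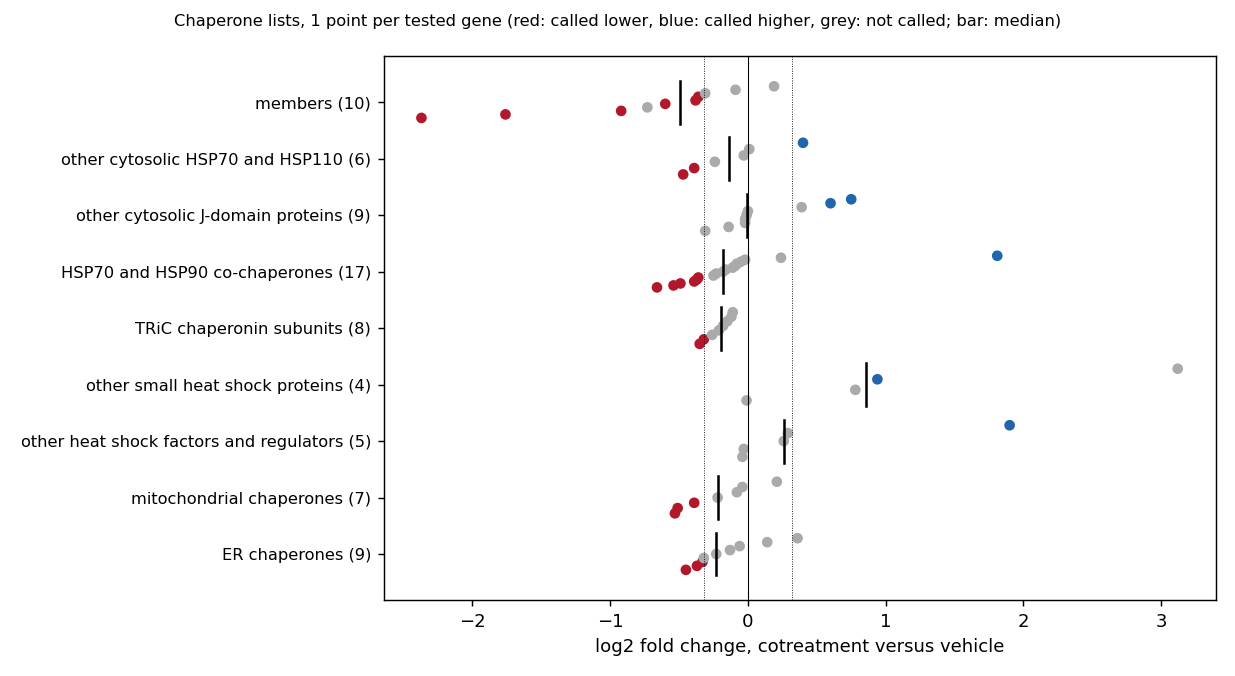
Log2 fold change of cotreatment against vehicle for the 10 members and 8 lists of other chaperones, 1 point per tested gene, red for called lower, blue for called higher and grey for not called, with a bar at each median. The members' median of -0.49 is the lowest, with 6 of 10 called lower, and the J-domain list, with a median of -0.01, has 2 called higher and none lower. The members and the lists were chosen with earlier results of these data known, so their order is a description.

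Some pairs of members varied together from tumor to tumor within groups and others did not. After the mean of each group was subtracted from log2 CPM, Pearson's r over 20 tumors was above 0.5 for 15 of the 45 pairs and negative for 11. Points share their library and the 4 group means, and the r values are descriptions. Differences between earlier and later library codes were not removed, and their part in r was not tested. In cisplatin tumors, for example, Hsf1 was 62.3 to 68 CPM with earlier codes and 75.5 to 82.3 with later ones. In KW6002 tumors its ranges overlapped (75.1 to 83.4 and 68.7 to 82.7). The highest r was 0.86 between Hspa1a and Hspa1b, which also share sequence, and 0.78 without the 2 tumors farthest from the median, cisplatin 5 and KW6002 1. Hspb1 and Hspb8 had r = 0.82 (0.57 without KW6002 2 and vehicle 3), and Hspa1a and Dnajb1 had r = 0.81 (0.57 without cisplatin 5 and KW6002 1). Hspa1b and Dnajb1 had r = 0.64, and 0.4 without the same 2 tumors. Hsph1 went with Hsp90aa1 (0.69, and 0.71 without KW6002 1 and KW6002 2) and with Hspa8 (0.64, and 0.54 without vehicle 4 and vehicle 1). Hsf1 went with Hspa1a (0.66, and 0.59 without cisplatin 2 and vehicle 4) and Hspa1b (0.67, and 0.62), but r with Hspa8 was -0.34, the lowest of all pairs. The inducible HSP70 genes and the constitutive one thus had an r of -0.15 for Hspa1a and -0.24 for Hspa1b with Hspa8.

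**Figure D4:**
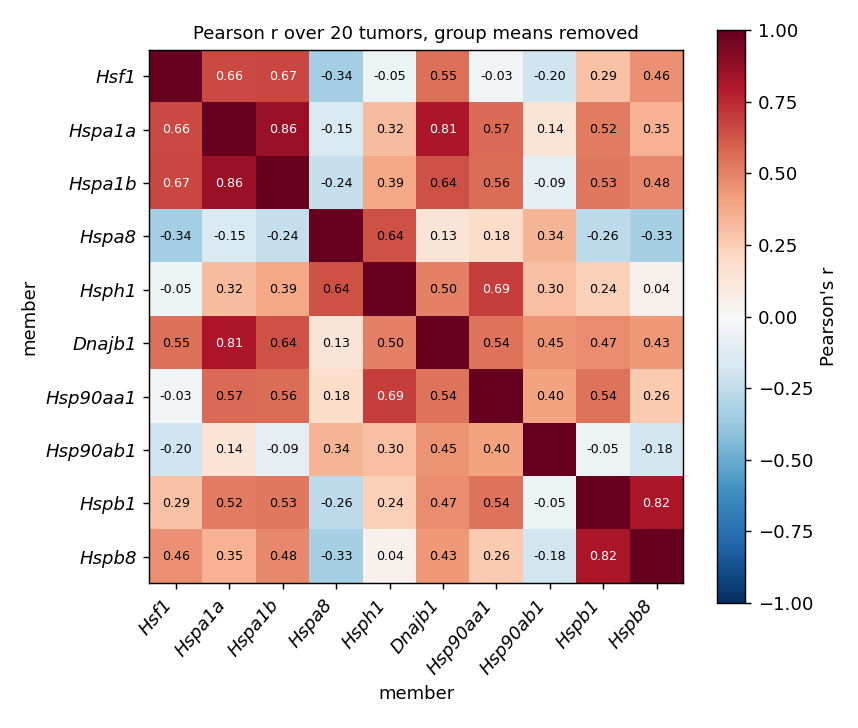
Pearson's r between members over 20 tumors after group means were removed from log2 CPM, with red for positive and blue for negative values on a scale from -1 to 1. The r values among Hspa1a, Hspa1b and Dnajb1 run from 0.64 to 0.86 (0.4 to 0.78 without cisplatin 5 and KW6002 1), and that of Hspb1 with Hspb8 is 0.82, while Hspa8 is negative with 5 members.

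The genes most like 3 of the members, among 12739 tested genes with a mean of at least 50 counts, were named by the same measure. As the highest of so many r values, these are raised by the selection itself and are descriptions. For Hspa1a they were Slc2a1, a glucose transporter (r = 0.87), Prdm1, a transcription factor of lymphocyte differentiation (0.87), and Apln, the ligand of the apelin receptor (0.86), and without cisplatin 5 and KW6002 1 these were 0.78, 0.74 and 0.73. For Hspa8 they were Heatr3 (0.83), Mtap, an enzyme of methionine salvage (0.78), and Mettl16, an RNA methyltransferase (0.77), which became 0.66, 0.37 and 0.71 without vehicle 4 and vehicle 1. For Hspb1 they were Cryab, another small heat shock protein (0.83), Hspb8 (0.82) and Arf6, a small GTPase (0.76), which became 0.69, 0.57 and 0.56 without KW6002 2 and vehicle 3.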

How the data were processed

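Per the labels, the submitters' processing notes and the study's methods, the authors made stranded poly(A) libraries (TruSeq), sequenced single-end reads of 50 bases, aligned them to mm10 (GRCm38) with STAR, kept reads that aligned to 1 place and counted them per Ensembl gene with HTSeq 0.6.1p1 in union mode; the strand option is not given in the sources used here. The deposited table holds raw counts for 20 tumors. Groups came from the sample titles. Counts of 35226 genes, 35142 with a symbol, were filtered with filterByExpr, which left 16665 genes holding 99.9% of counts, and tested with edgeR 4.0.16 in R 4.3.3 (TMM scaling, quasi-likelihood F-test, robust, 4 group means over 20 tumors, 6 two-sided comparisons). SE is the log2 fold change divided by the root of F, and intervals are at 95%. A prior count of 2 was used for log2 CPM in correlations. The test was also run on simulated counts, whose outcome is not given here and on which no statement rests. DESeq2 1.42.0 and limma 3.58.1, other scalings, filters, terms for library code and replicate number, and the omission of each tumor were tried as alternatives, with 3 more chosen after seeing the data. Shared windows, overlaps and exon lengths came from GENCODE vM21 (GRCm38). The members and gene lists were chosen with earlier results of these data known. All members are named; from each other list at most 2 raised and 2 lowered genes with a mean of at least 50 counts and the largest change are named, and Hsf2bp and Hsf2 were added after their values were seen. No 2 columns were identical, and the lowest chi-square per gene between tumors of a group was 8.44, far above sampling noise.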

Additional observations from a re-analysis of the deposited data

Results flagged for a closer look

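In 8 of the 40 sets of 5 tumors (10 members in 4 groups), 1 tumor stood apart from the other 4 by Dixon's test at its 95% critical value of 0.71, which chance alone passes in about 1 set in 20. Cisplatin 5 was the highest for Hspa1a (1.95 CPM against 0.305 to 0.644 in the other cisplatin tumors) and for Dnajb1 (82.9 CPM against 49.9 to 57.7), and it also had the highest summed immediate early genes of all tumors (334 CPM). KW6002 1 was the highest for Hspa1a (5.69 CPM against 1.95 to 2.5) and Hspa1b (8.8 CPM against 2.22 to 2.94), and its summed B cell markers were 44.1 CPM against 0.601 to 1.09 in the other KW6002 tumors. Whether these markers have a part in the chaperone values was not tested. Hspb1 was highest in vehicle 3 (1.93 CPM against 0.281 to 0.685) and in cotreatment 4 (0.936 CPM against 0.281 to 0.358), the tumor with the highest skeletal muscle markers (1720 CPM). Hspb8 was lowest in KW6002 2 (48.5 CPM against 58.5 to 62.4), and Hsp90ab1 was highest in cotreatment 2 (4440 CPM against 4060 to 4130).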

How the results depend on the processing

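Refits were tallied for 43 member values, each under up to 36 settings. These were all members in the 4 comparisons of cisplatin or cotreatment with another group, Hspa8 in the interaction, and Hspa1a and Hspa1b with KW6002 alone. The remaining members were refitted in the interaction and with KW6002 alone too, but not tallied. Of the tallied refits, 1407 kept direction and side of the threshold, 36 lost a call, 25 gained one and 47 changed sign. Some of them left out a tumor of a group outside the comparison. After cisplatin 4 members were called, but 2 with at least 10 counts required in every tumor (Hspa1a and Hspb1 were then not tested, and Hsp90aa1, at -0.32 with adjusted p = 0.00204, fell under the fold limit), 3 with no filter on low counts or with separate code run terms (Hspa1b lost, adjusted p = 0.102 and 0.0865), 5 with the libraries that stand apart left out (Dnajb1 gained, -0.36, adjusted p = 0.00753), 2 in the later code run alone and 0 when the fold limit itself was tested; leaving out single tumors gave 2 to 5, the lowest without vehicle 3, cisplatin 3 or cisplatin 4. After cotreatment 6 were called, 5 to 7 without single tumors, 4 when the fold limit itself was tested (Hspa8 and Dnajb1 lost, adjusted p = 0.368 and 0.581), 5 with no filter on low counts or with separate code run terms (Dnajb1 lost in both, adjusted p = 0.06 and 0.312), 5 with at least 10 counts in every tumor (Hspa1a not tested), and 7 with the libraries that stand apart left out (Hsf1 gained, -0.32, adjusted p = 0.00567). For cotreatment against cisplatin, 1 was called with DESeq2, upper quartile scaling, limma or no fold limit, and 0 to 1 without single tumors. For cotreatment against KW6002, 5 were called, 3 in the later code run alone, 4 with separate code run terms (Hspa1b lost, -1.05, adjusted p = 0.122), 4 when the fold limit was tested (Hspa8 lost, adjusted p = 0.0846), 4 with at least 10 counts in every tumor (Hspa1a not tested), and 6 with upper quartile scaling (Hsf1 gained, -0.32, adjusted p = 0.00442). Replicate numbers did not pair the tumors (correlations between equal numbers ran from -0.39 to 0.39), and the replicate block left 0, 4, 6, 0, 5 and 0 calls in the 6 comparisons, as without it.

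Among the 43 tallied values, sign changes occurred only where the member was not called in that comparison. With KW6002, Hspa1a was at -0.10 in the later code run alone, at -0.22 (without KW6002 1) to 0.38 without single tumors and at -0.22 with the 3 libraries that stand apart left out (an alternative chosen after seeing the data, as were the earlier code run alone and separate code run terms), and Hspa1b was at 0.04 with Hspa1a and Hspa1b summed and at -0.59 to 0.20 without single tumors. With cisplatin, Hsf1 was at 0.10 in the later code run alone, 0.04 with separate code run terms and -0.10 to 0.00 without single tumors, the highest without cisplatin 2. With cotreatment, Hspb1 was at -1.22 to 0.04 without single tumors, the highest without vehicle 3. In cotreatment against cisplatin, the earlier code run alone gave 0.03 for Hspa1a, 0.05 for Hspa1b, -0.03 for Hspb1 and 0.00 for Hspb8, leaving out the libraries that stand apart gave -0.02 for Hspb1, and single tumors left out gave -0.85 to 0.11 for Hspa1a, -0.20 to 0.01 for Dnajb1, -0.15 to 0.47 for Hspb1, -0.02 to 0.03 for Hsp90ab1 and -0.02 to 0.03 for Hspb8. There Hsp90ab1 was at 0.00 with upper quartile scaling, code run as a term, the later code run alone or separate code run terms, and Hspb8 at 0.00 to 0.03 with DESeq2, RLE scaling, either low-count filter, limma, code run as a term, the later code run alone or separate code run terms (0.01 with no filter, with code run as a term and with separate terms, 0.02 with limma). The cause of these shifts was not tested. Hspa1a, Hspa1b and Hspb1 had the fewest reads and the widest intervals.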
